A study of Rattus norvegicus with 9 samples.

Results

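The genes described here encode the cytosolic translation factors, the proteins that start, extend and end the synthesis of a polypeptide on the ribosome. They were taken from a rat dendrite expression array as the probe sets that name a single gene whose symbol begins with Eif or Eef and a digit, together with the release factors Etf1, Gspt1 and Gspt2. This rule found 63 genes among the 14217 genes that the array names, of which 49 were initiation factors, 11 were elongation factors and 3 were release factors. The 9 arrays came from dendrites cut from Sprague-Dawley rat hippocampal neurons, labelled as pyramidal, in dispersed primary culture for 14 days after embryonic day 19. There were 3 pools of 100 dendrites, 3 of 200 and 3 of 400, all untreated, each gathered over several cells by glass pipette, and the RNA passed through 2 rounds of amplification and a final one before labelling. The labels call the 3 arrays of a pool size biological replicates without saying whether they came from separate cultures, so the spread between them may be partly technical. No array of cell bodies was used, so the ranks below say where a transcript stood among dendritic signals and nothing of its enrichment in dendrites. The paper states that axons could not be told from dendrites by shape, so a small share of the RNA is typically axonal. It adds that RNA of cell bodies may contaminate the pools.

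Initiation begins when eIF4E binds the cap of an mRNA and joins the scaffold eIF4G and the helicase eIF4A, while eIF2 brings the initiator tRNA to the small ribosomal subunit and eIF3 bridges both. The guanine nucleotide exchange factor eIF2B recharges eIF2, kinases that phosphorylate eIF2 block that exchange, and 4E-binding proteins keep eIF4E from eIF4G. In elongation eEF1A delivers aminoacyl-tRNA, the eEF1B subunits recharge eEF1A and eEF2 moves the ribosome along the mRNA, and at a stop codon eRF1 and eRF3 release the chain. Dendrites hold ribosomes and translate mRNA near synapses, and both phosphorylation of eEF2 and 4E-binding proteins are known controls of that local synthesis.

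Many mRNAs of elongation factors begin with a C followed by an unbroken stretch of pyrimidines, the terminal oligopyrimidine tract through which the mTOR pathway sets their translation. The sequences below are shown because they set 5 elongation factors beside the 5 initiation factors in the top 5% of signals. Each is a window of 40 bases from RefSeq (build GRCr8) with 20 bases on either side of the annotated transcription start, read 5′ to 3′ on the transcribed strand. Capitals mark a C followed by 5 or more bases that are each C or T, searched on that strand only and not overlapping any other motif.
Eef1a1: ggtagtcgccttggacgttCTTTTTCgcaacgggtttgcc
Eef1a2: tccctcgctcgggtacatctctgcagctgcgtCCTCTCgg
Eef1b2: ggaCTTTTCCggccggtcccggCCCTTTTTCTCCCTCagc
Eef1g: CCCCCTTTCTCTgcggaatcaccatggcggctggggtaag
Eef2: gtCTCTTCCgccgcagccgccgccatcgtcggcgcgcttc
Eif4a1: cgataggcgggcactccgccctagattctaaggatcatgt
Eif4ebp2: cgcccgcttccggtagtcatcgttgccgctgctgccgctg
Eif2b4: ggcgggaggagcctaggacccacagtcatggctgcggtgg
Eif4g2: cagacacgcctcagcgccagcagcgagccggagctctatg
Eif3i: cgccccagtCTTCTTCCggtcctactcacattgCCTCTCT
Eef1a1 lies at chr8:88225050-88225089 on the minus strand, Eef1a2 at chr3:188652614-188652653 on the minus strand, Eef1b2 at chr9:72074071-72074110 on the plus strand, Eef1g at chr1:215289795-215289834 on the plus strand and Eef2 at chr7:9189219-9189258 on the minus strand. The initiation factors lie at chr10:54888583-54888622 (Eif4a1), chr20:29942903-29942942 (Eif4ebp2), chr1:174628233-174628272 (Eif4g2) and chr5:147226891-147226930 (Eif3i), all on the minus strand, and at chr6:30903219-30903258 (Eif2b4) on the plus strand. Each window covers the last bases before the gene and the first bases of its first exon.

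Such a run was found somewhere in the window of all 5 elongation factors of the core machinery that have an annotated start, Eef1d being the core member without one. Over the 58 members with a start, 23 (39.7%) held a run, against 27.7% of 11733 genes of the array and 27.9% of 27457 RefSeq promoters. Of the 6 members in the top 5% of signals, Eif3i was the 1 that held it. In Eef1a1 the run began 1 base before the annotated start, whereas in Eef1a2, its paralogue of neurons and muscle, a shorter run of 6 bases began 12 bases after it. In Eef1g and Eef2 runs of 12 and 7 bases began 20 and 18 bases before the start and ended before it. They thus lie outside the annotated transcript. In Eef1b2 and Eif3i the first run began 17 and 11 bases before the start and also ended before it. Both windows hold a later run that begins after the start. In Eef1b2 that later run is the longer one and lies just inside the annotated transcript, and in Eif3i it reaches the end of the window. Members with a run stood at a median of the 58.1 percentile of signal and members without one at the 63.8 percentile, compared with 49.86 and 50.03 for all genes of the array. A match describes the letters only, and where none was found the letters are simply not in that window.

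The values are log2 probe set signals, so that 1 unit is a doubling, and a gene with several probe sets was given their median. Because signal depends on the affinity of each probe, genes were placed by the percentile of their signal within each array, and a rank is a rank of signal, not of RNA amount. Array medians ran from 7.46 to 7.53, and the mean correlation of an array with the other arrays ran from 0.749 for replicate 1 of the 400-dendrite pools to 0.839. Of 10 marker genes of pyramidal neurons 9 were measured, with a median at the 81.4 percentile, 3 of them in the top 5% and Tbr1 lowest at 2.43. Markers of interneurons stood at a median of 44.6, of astrocytes at 84.1, of oligodendrocyte lineage at 57.9, of fibroblasts and vascular cells at 36.4 and of microglia at 29.7. These other lists, of 7 to 10 measured genes each, had 0 members in the top 5%, which holds 5% of all genes. The mean signal of the astrocyte list was 7.84 to 8.77 in pools of 100, 7.02 to 8.58 in pools of 200 and 7.32 to 8.43 in pools of 400. That of the fibroblast and vascular list was 6.87 to 7.46, 7.28 to 7.91 and 7.32 to 9.14, so it reached higher in the larger pools, and the part of either list in the results was not tested. In pooled dendrites, fewer dendrites carrying a transcript and less of it per dendrite cannot be told apart.

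Translation factors gave signals from among the highest on the array to among the lowest. The median member stood at the 62.7 percentile, and 38 of the 63 (60.3%) lay above the 50th percentile, as 49.9% of all genes did. By the median over 9 arrays 6 members (9.52%) were in the top 5% of genes, the 711 of highest rank, against 5% of all genes by construction. These were the helicase Eif4a1, the release factor Etf1, the 4E-binding protein Eif4ebp2, the exchange factor subunit Eif2b4, the scaffold Eif4g2 and the eIF3 subunit Eif3i. All but Eif2b4 were in the top 5% of every one of the 9 arrays, so 5 of 63 members reached a mark that 2.15% of genes reached. A further 12 members stood below the 20th percentile, among them the α subunit of eIF2, Eif2s1. In all 9 arrays 21 members lay above the 50th percentile and 14 lay below it, compared with 22.3% and 21.8% of genes, so the share that stayed high was 33.3% and the share that stayed low, 22.2%, was near that of all genes.

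**Figure D1:**
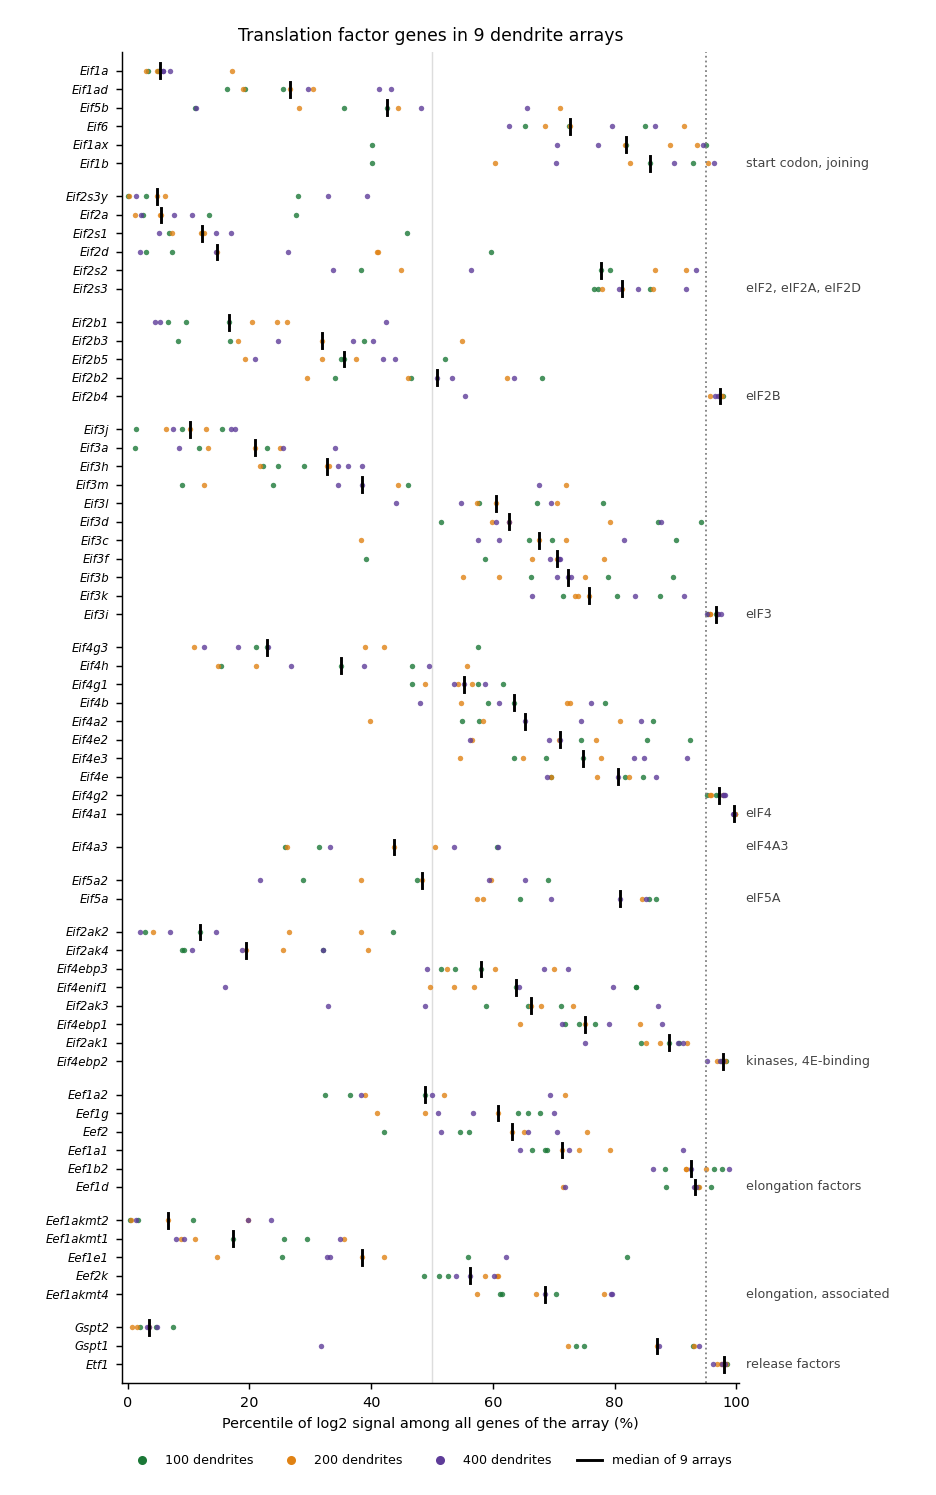
Percentile of the log2 signal of 63 translation factor genes among all genes of each array (horizontal axis, %), with 1 point for each of 9 arrays coloured by the number of dendrites in the pool and a black bar at the median. The dotted line marks the 95th percentile, beyond which lie the medians of 6 genes, and the grey line the 50th. Points of Eif4a1 lie between 99.4 and 99.8, while those of Gspt1 run from 31.7 to 93.9.

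Among the factors that bind the cap and unwind the leader, 8 of 10 lay above the 50th percentile, with a median of 68.2. Eif4a1, the DEAD-box helicase of the complex, was the highest member of all, at 12.53 ± 0.17 (SD, n = 9) and the 99.5 percentile. Its signal was 12.80, 12.42 and 12.40 in the pools of 100 dendrites, 12.79, 12.61 and 12.54 in those of 200, and 12.39, 12.50 and 12.37 in those of 400. All 9 values lay within less than 1 log2 unit, and those in pools of 100 overlapped both other pool sizes, while those in pools of 400 lay just below those in pools of 200. Its paralogue Eif4a2 stood far lower in rank, at the 65.3 percentile (8.27 ± 0.66), with array percentiles between 39.8 and 86.2. That value is the median of 2 probe sets, at the 87.7 and 66.3 percentiles of probe sets and each with an SD of 1.09, whereas Eif4a1 has 1 probe set. The scaffold Eif4g2, which lacks the eIF4E-binding site of its relatives, gave 10.37, 11.00 and 10.81 in pools of 100, 10.55, 11.17 and 10.64 in pools of 200, and 11.26, 11.53 and 11.33 in pools of 400. The 3 arrays of 400 dendrites thus lay above all 6 others, a pattern taken up below with the probe sets behind it. Eif4g1, the scaffold of canonical initiation, stood at the 55.3 percentile (7.76 ± 0.17) and Eif4g3 at 22.8 (6.71 ± 0.61), the lowest of this complex. The Eif4g1 value is the median of 4 probe sets, whose own SDs ran from 0.44 to 1.12. Eif4b and Eif4h, which assist the helicase, stood at 63.4 and 35.1.

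Cap-binding proteins themselves lay in the upper part of the signals. Eif4e, the cap-binding subunit, stood at the 80.5 percentile (8.71 ± 0.36). It gave 9.04, 8.29 and 8.87 in pools of 100, 8.27, 8.90 and 8.62 in pools of 200, and 8.28, 8.85 and 9.22 in pools of 400. The 3 pool sizes overlapped throughout. Eif4e3, a divergent cap-binding relative, stood at 74.8 (8.57 ± 0.62) and Eif4e2, a cap-binding protein that does not recruit eIF4G and represses its targets, at 71.1 (8.52 ± 0.63). All 3 cap-binding genes were above the 50th percentile in every array.

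The proteins that restrain initiation spanned the same range as the factors they act on, with 6 of 8 above the 50th percentile and a median of 65.0. Eif4ebp2, the 4E-binding protein predominant in brain, was the highest of them at the 97.7 percentile. It measured 11.12, 11.11 and 11.48 in pools of 100 dendrites, 11.27, 11.38 and 11.02 in pools of 200, and 10.30, 11.18 and 11.25 in pools of 400. Replicate 1 of the 400-dendrite pools was the low value, and the other 8 lay between 11.02 and 11.48. The other 4E-binding proteins ranked lower, Eif4ebp1 at 75.2 (8.60 ± 0.36) and Eif4ebp3 at 58.1 (7.93 ± 0.32). Eif4enif1, a partner that carries eIF4E into the nucleus, stood at 63.8. Of the kinases that phosphorylate eIF2, Eif2ak1, the heme-regulated kinase, stood at 89.0 (9.33 ± 0.40) and Eif2ak3, the kinase of endoplasmic reticulum stress known as PERK, at 66.3 (8.10 ± 0.61). Eif2ak4, the amino acid sensor GCN2, stood at 19.4 and Eif2ak2, the double-stranded RNA sensor PKR, at 11.9, and both lay below the 50th percentile in all 9 arrays.

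The subunits of eIF2 did not rank together. The γ subunit gene Eif2s3 stood at the 81.2 percentile (8.95 ± 0.35) and the β subunit gene Eif2s2 at 77.7 (8.43 ± 1.14), but the α subunit gene Eif2s1, which carries the regulatory phosphorylation site, stood at 12.2 (6.12 ± 0.56). Eif2s2 was among the 5 members of largest spread. Its values of 8.61, 7.17 and 8.73 in pools of 100, 7.40, 9.18 and 9.78 in pools of 200, and 7.02, 10.13 and 7.83 in pools of 400 varied as much within a pool size as between them. The alternative and sex-linked members ranked low, with Eif2d at 14.7, Eif2a at 5.48 and Eif2s3y, the Y-linked copy of the γ subunit, at 4.77. The group median was 13.5 over 6 genes, of which 2 lay above the 50th percentile. A probe set that names both Eif2s3 and Eif2s3y was outside the rule, and signal of near-identical copies cannot be assigned to 1 of them.

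Within eIF2B a single subunit gene stood apart from the other 4. Eif2b4, the δ subunit, had a median at the 97.3 percentile, whereas Eif2b2 (β) stood at 50.9, Eif2b5 (ε, the catalytic subunit) at 35.5, Eif2b3 (γ) at 31.9 and Eif2b1 (α) at 16.7. In pools of 100 dendrites Eif2b4 gave 11.09, 11.16 and 11.06, in pools of 200 it gave 11.07, 11.15 and 10.66, and in pools of 400 it gave 7.78, 10.91 and 11.00. Replicate 1 of the 400-dendrite pools was thus more than 2 log2 units below every other array, at the 55.4 percentile. Without that array Eif2b4 was at 11.01 ± 0.17 (SD, n = 8), against 10.65 ± 1.09 with it. Each of these subunits except Eif2b5 was measured by 1 probe set.

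Of the eIF3 subunits, 7 of 11 lay above the 50th percentile, with a median of 62.7. Eif3i, a subunit of propeller fold, was the highest at 96.7. Its signals were 10.75, 10.43 and 10.84 in pools of 100, 10.88, 10.48 and 10.64 in pools of 200, and 11.10, 11.09 and 10.43 in pools of 400. They lay close together and the pool sizes overlapped. Eif3k (75.8), Eif3b (72.4), Eif3f (70.5), Eif3c (67.6), Eif3d (62.7) and Eif3l (60.5) followed. Below the 50th percentile were Eif3m (38.5), Eif3h (32.8), the large core subunit gene Eif3a (20.9) and Eif3j (10.2), a loosely bound subunit. Eif3h, Eif3a and Eif3j were below the 50th percentile in all 9 arrays.

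Factors of start codon choice and subunit joining were split evenly, with 3 of 6 above the 50th percentile and a median of 57.6. Eif1b, a relative of the start codon factor eIF1, stood at 85.9 and Eif1ax, one of the genes for eIF1A, at 81.8. Both had wide spreads, of 1.17 and 1.02 log2 units, and in each the lowest value, 7.22, came from replicate 1 of the 100-dendrite pools. Eif6, which keeps free large subunits from joining, stood at 72.7 and was above the 50th percentile in all arrays. Eif5b, the GTPase of subunit joining, stood at 42.6, Eif1ad, a protein with an eIF1A-like domain, at 26.6 and Eif1a at 5.23. Eif5a, which despite its name acts in elongation and termination and bears the modified lysine hypusine, stood at 80.8 (8.60 ± 0.57), above its paralogue Eif5a2 at 48.4 (7.53 ± 0.59). Eif4a3, the helicase of the exon junction complex, stood at 43.7.

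None of the 11 elongation factors was in the top 5% by median, a count that 11 genes are too few to set apart from the 5% of all genes. Of these factors 7 lay above the 50th percentile. The highest were both exchange factor subunits that recharge eEF1A. Eef1d stood at the 93.2 percentile, with signals of 9.36, 10.62 and 10.06 in pools of 100 dendrites, 8.35, 9.93 and 10.17 in pools of 200, and 9.93, 10.08 and 8.39 in pools of 400. Eef1b2 stood at 92.5, with 9.35, 10.75 and 11.15 in pools of 100, 10.37, 9.73 and 9.78 in pools of 200, and 9.81, 11.88 and 9.18 in pools of 400. Both varied by more than 2 log2 units, and the highest and lowest values of Eef1b2 came from pools of the same size, 400 dendrites. Eef1b2 was in the top 5% of 4 arrays and Eef1d of 1. The remaining subunit of the exchange complex, Eef1g, stood at 60.9 (7.89 ± 0.35).

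The tRNA-delivering and translocating factors ranked in the middle of the array. Eef1a1, the main form of eEF1A, stood at the 71.3 percentile. It measured 8.15, 8.26 and 8.27 in pools of 100, 8.45, 8.37 and 8.74 in pools of 200, and 8.11, 9.79 and 8.41 in pools of 400. Only replicate 2 of the 400-dendrite pools exceeded 9. Without that array Eef1a1 was at 8.34 ± 0.20 (SD, n = 8) in place of 8.51 ± 0.52. Eef1a2, the form that replaces it in mature neurons, stood at 48.9 (7.54 ± 0.51), with array percentiles between 32.4 and 71.9. Eef2, the translocase, stood at 63.2, with 7.30, 7.74 and 7.81 in pools of 100, 8.51, 8.13 and 8.04 in pools of 200, and 8.35, 7.63 and 8.16 in pools of 400. For Eef2 every array of 200 dendrites lay above every array of 100, while the arrays of 400 overlapped both.

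Proteins that modify or accompany the elongation factors ranked lower than the core ones. Over 5 such genes the median was the 38.5 percentile, compared with 67.2 over the 6 core factors. Eef2k, the kinase that halts eEF2, stood at 56.3 (7.79 ± 0.16), and its spread was the smallest of all 63 members. That value is the median of 4 probe sets, whose own SDs ran from 0.19 to 1.09. Of the methyltransferases that act on eEF1A, Eef1akmt4 stood at 68.6 (8.30 ± 0.35), Eef1akmt1 at 17.3 (6.38 ± 0.53) and Eef1akmt2 at 6.53 (5.73 ± 0.66). Eef1e1, a scaffold of the aminoacyl-tRNA synthetase complex, stood at 38.5 (7.33 ± 0.80).

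The release factors lay at both ends. Etf1, which encodes eRF1, the protein that reads the stop codon, was second among all members at the 97.9 percentile. It gave 11.17, 11.55 and 11.39 in pools of 100, 11.14, 11.44 and 11.06 in pools of 200, and 10.59, 11.30 and 11.40 in pools of 400. The lowest of these came from replicate 1 of the 400-dendrite pools, and Etf1 was still in the top 5% there. Gspt1, which encodes its partner GTPase eRF3, stood at 87.0, with 9.92, 8.47 and 8.54 in pools of 100, 9.90, 8.41 and 9.22 in pools of 200, and 6.94, 10.23 and 9.26 in pools of 400. Its spread of 1.02 log2 units was among the 5 largest, and its lowest value came from the same array as that of Etf1. Gspt2, the paralogue of Gspt1, was the lowest member of all, at 3.41 (5.40 ± 0.22), and was below the 50th percentile in every array.

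As the symbols group them, initiation and elongation factors differed in rank by less than the spread between arrays, and the order of the groups depended on how they were defined. The median initiation factor stood at the 62.7 percentile and the median elongation factor at 60.9, a difference of −1.81 points for elongation minus initiation. Taken array by array, the group medians averaged 58.9 ± 4.29 and 61.1 ± 5.31 (SD, n = 9), and the same difference averaged 2.21 ± 7.498 percentile points. Elongation was higher in 4 arrays and initiation in 5, with differences between −5.90 and 14.1 points. The top 5% held 5 of the 49 initiation factors (10.2%) and 0 of the 11 elongation factors, beside 5% of all genes. With 11 genes, 0 cannot be set apart from that share. A narrower grouping left out the 8 regulators of initiation and the 5 associates of elongation, and counted eIF5A with elongation. Eif4a3, Eif1ad, Eif2a, Eif2d, Eif2s3y and Eif6 stayed with initiation, so the groups were not trimmed alike. The medians were then 60.5 over 39 initiation factors and 67.2 over 8 elongation factors. Their difference was 6.76 points with an SD of 6.00 over arrays, and elongation was higher in 8 of 9 arrays. With the probe set of highest mean signal for each gene the difference was 5.80 points and elongation was higher in 7 arrays, while among the genes of upper mean signal it was −10.2 points and elongation was higher in 1.

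**Figure D2:**
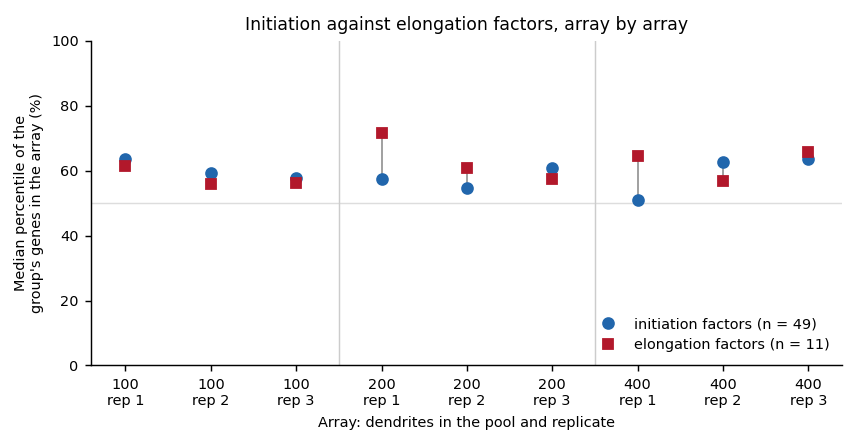
Median percentile of 49 initiation factors (blue circles) and 11 elongation factors (red squares) in each of 9 arrays, ordered by the number of dendrites in the pool and the replicate. The grey line marks the 50th percentile. Elongation is the higher of the pair in 4 arrays and initiation in 5, and the widest gap is 14.1 points in replicate 1 of the 200-dendrite pools.

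Where a gene had several probe sets, these often gave different signals. The 63 genes were measured by 96 probe sets, and 24 genes had more than 1. Differences in mean signal between probe sets of 1 gene ran from 0.16 log2 units for Eif4b to 4.97 for Eif4g2. The probe sets of Eif4g2 averaged 12.58, 10.96 and 7.61, those of Eif3l 10.39 and 5.67, and those of Eif2ak1 11.30 and 7.37. For these 3 genes, which differed by over 3 log2 units, the percentile given above is a middle value between very different probe signals. The probe sets of Eef1a1 averaged 9.26 and 7.75 and those of Eef2 8.77 and 7.16, so that the higher ones stood at the 84.4 and 78.0 percentiles of probe sets. Genes with 1 probe set reached the top 5% more often across the array, 6.44% against 1.92% of genes with more, and among the members the counts were 5 of 39 and 1 of 24. Where each probe set lies along its transcript was not analysed here.

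**Figure D3:**
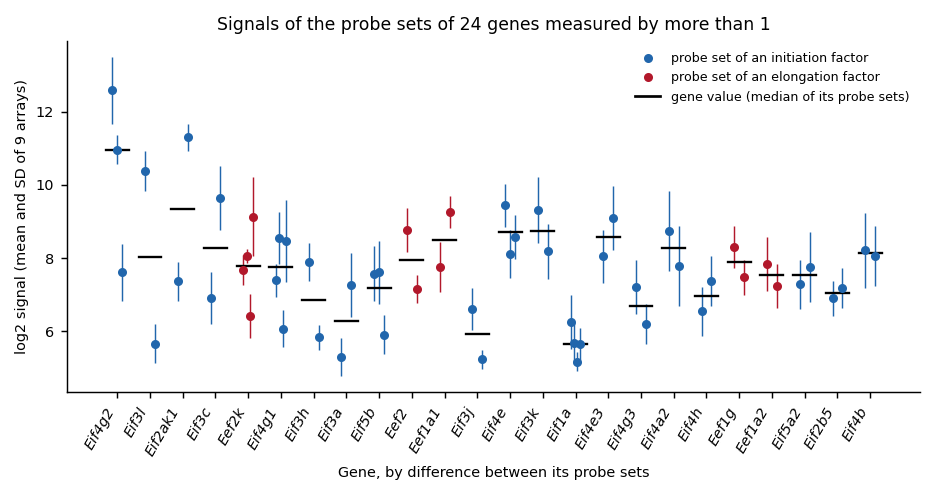
Mean log2 signal of each probe set (points, with bars of 1 SD over 9 arrays) for the 24 translation factor genes with more than 1 probe set, ordered by the difference between them. Black lines give the gene value, the mean over arrays of the median of the probe sets. The probe sets of Eif4g2 span 4.97 log2 units and those of Eif4b 0.16.

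No translation factor passed the test for a difference between pools of 100, 200 and 400 dendrites. In limma with Benjamini-Hochberg adjustment over 14217 genes, 0 of 63 members were called at an adjusted p under 0.05 in any of the 3 contrasts, in the moderated F over pool sizes or in the slope per doubling of dendrites, and 0% of all genes were. At an unadjusted p under 0.05 there were 2 members for 400 against 100 dendrites, 0 for 200 against 100 and 1 for 400 against 200, against 342, 431 and 327 of all genes, and the methods' t-test gave 5, 4 and 2 members beside 408, 488 and 409 of all genes, with 0 members called. Members had a higher mean in the larger pool in 36, 33 and 34 of 63 cases (57.1%, 52.4% and 54.0%), beside 51.5%, 50.1% and 51.1% of all genes. Their median differences were 0.14, 0.02 and 0.11 log2 units, beside 0.02, 0.00 and 0.01 over all genes. The median 95% interval of a member reached 0.94 log2 units to either side, and members that differed by more than that also missed the adjusted threshold with 3 arrays a group. That a member missed the threshold does not show that its level was the same.

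The smallest unadjusted p values belonged to the relatives of the cap-binding protein. Eif4e3 gave 8.04, 8.52 and 8.28 in pools of 100, 8.09, 7.76 and 8.65 in pools of 200, and 9.71, 9.12 and 8.96 in pools of 400. The arrays of 400 lay above all others, by 0.99 log2 units over 100 (95% interval 0.16 to 1.82) and by 1.10 over 200 (0.27 to 1.93). The limma p values were 0.0237 and 0.0140 before adjustment and 0.999 after it in both contrasts. Eif4e2 moved the other way, with 9.84, 9.10 and 8.52 in pools of 100, 7.80, 8.61 and 8.35 in pools of 200, and 7.81, 8.36 and 8.29 in pools of 400. Its difference of −0.996 between 400 and 100 (95% interval −1.91 to −0.077, with limma p values of 0.0360 before and 0.999 after adjustment) rested on arrays that did not overlap, while those of 200 overlapped both. It was −0.65 without replicate 1 of the 100-dendrite pools, with a limma p value of 0.151 before adjustment. Per doubling of dendrites the slopes were 0.49 for Eif4e3, −0.50 for Eif4e2 and 0.36 for Eif1ad, whose values were 6.40, 6.26 and 6.67 in pools of 100, 6.89, 6.39 and 6.73 in pools of 200, and 7.36, 6.84 and 7.30 in pools of 400. The slopes had limma p values of 0.0319, 0.0345 and 0.0475, each with an adjusted p of 0.999, and without the same array the slope of Eif4e2 was −0.31.

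Other members of smallest p lay further from the threshold. Between 200 and 100 dendrites these were Eif4e2 (−0.90), Eif3b (−0.70) and Eef2 (0.61), with limma p values of 0.0542, 0.107 and 0.116. Without replicate 1 of the 100-dendrite pools Eif4e2 was at −0.56, and without replicate 2 of them Eif3b was at −0.35. Between 400 and 200 they were, beside Eif4e3, Eif2s3y (1.11) and Eif4g2 (0.58), with limma p values of 0.0991 and 0.124. Eif2s3y was at 1.75 without replicate 1 of the 400-dendrite pools and at 0.72 without replicate 3. For Eif4g2 the value is that of its middle probe set, and the other probe sets gave −0.09 and −0.93 for the same contrast, so the direction differed between probe sets of the gene. For Eif4e3 both probe sets gave a higher mean in 400 than in 200 dendrites, by 0.78 and 1.41. In 5 genes with an array far from the rest, the difference between 400 and 100 dendrites depended on that array. Without replicate 1 of the 400-dendrite pools, that of Eif2b4 moved from −1.21 to −0.15, that of Eif4ebp2 from −0.33 to −0.018 and that of Eif2s3 from 0.41 to 0.15. That of Eef1a1 moved from 0.54 to 0.034 without replicate 2 of the 400-dendrite pools, and that of Eif2s1 turned from −0.37 to 0.16 without replicate 3 of the 100-dendrite pools.

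**Figure D4:**
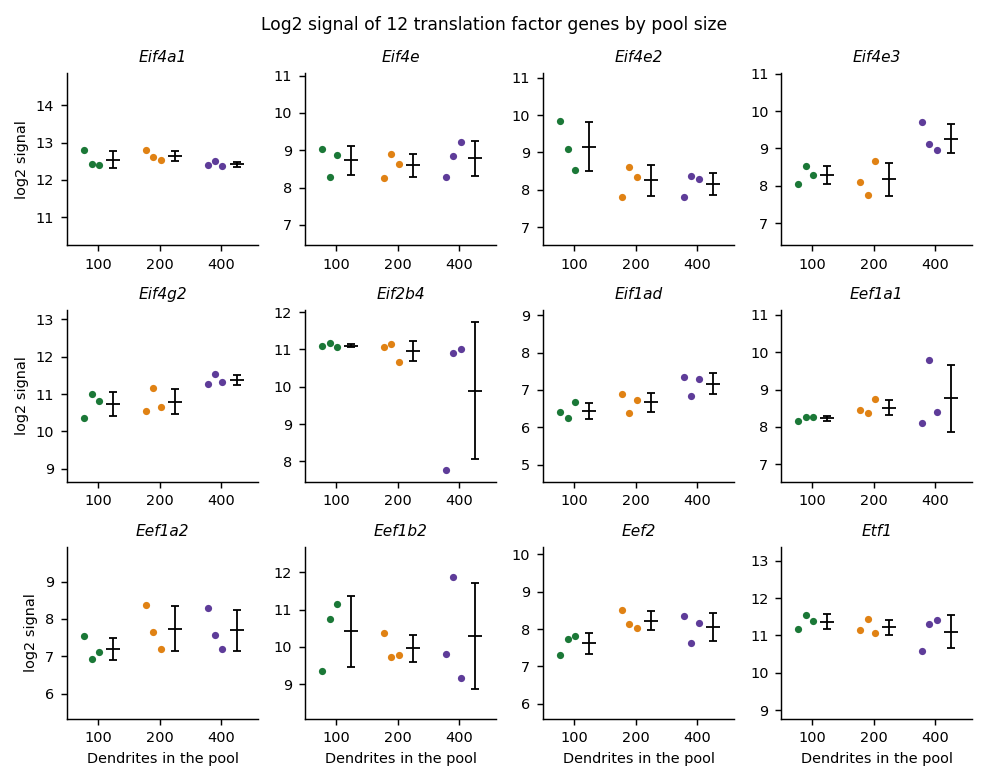
Log2 signal of 12 translation factor genes against the number of dendrites in the pool, with 1 point per array and, beside the points, the mean and SD of the 3 arrays. Every panel spans the same number of log2 units, about its own centre. Arrays of 400 dendrites lie above the others for Eif4e3 and Eif4g2, 1 array of 400 lies far below the rest for Eif2b4 and 1 far above for Eef1a1, and no difference passed the adjusted threshold.

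Within role groups the differences between pool sizes went both ways. All 6 genes of start codon choice and joining had a higher mean in pools of 400 than of 100 (median difference 0.38 log2 units), but 2 of these 6 were higher in pools of 400 than of 200 (−0.097). For Eif1b and Eif1ax the mean in pools of 100 held the low value of 7.22 from replicate 1. The other arrays of 100 gave 8.88 and 10.31 for Eif1ax, beside 8.64, 10.36 and 8.34 in pools of 400. Between 400 and 100 dendrites 7 of 11 eIF3 subunits (0.20) and 3 of 8 regulators of initiation (−0.12) were higher, as were 51.5% of all genes. Of elongation factors 6 of 11 were higher (0.22), and all 3 release factors were lower (−0.17). In replicate 1 of the 400-dendrite pools Gspt1 was at 6.94, beside 10.23 and 9.26 in the others, and Etf1 at 10.59, beside 11.30 and 11.40. In pools of 100 Gspt1 lay between 8.47 and 9.92 and Etf1 between 11.17 and 11.55. None of these genes was called.

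The spread of the members over arrays was close to that of other genes. Their SD over 9 arrays had a median of 0.52 log2 units, beside 0.55 for all genes, and was below the median of all genes in 35 of 63. It ran from 0.16 for Eef2k, a median of 4 probe sets, to 1.17 for Eif1b. The 5 members of largest SD were Eif1b, Eif2s2, Eif2b4, Eif1ax and Gspt1, each measured by 1 probe set.

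Other genes of the translation pathway ranged as widely. Of the 8 measured factor genes whose mRNAs are known terminal oligopyrimidine mRNAs, 7 lay above the 50th percentile with a median of 66.9, from Eef1d at 93.2 to Eif3h at 32.8. In the top 5% there were 0, beside 5% of all genes, and 8 genes are too few to set that apart. Among 20 genes of the mTOR and integrated stress pathways 15 lay above the 50th percentile (median 64.2). The 20 ran from the endoplasmic reticulum chaperone Hspa5 at 99.6 (12.13 ± 1.16) to Rps6ka3 (RSK2), a ribosomal S6 kinase gene, at 4.33. Ribosome recycling and rescue genes, counted with the hypusine enzymes Dhps and Dohh, had a median of 63.3 over 8 genes. The highest was Pelo, which rescues stalled ribosomes, at 98.3 (11.24 ± 0.70). The lowest was Dhps, which begins hypusine formation on eIF5A, at 29.2. Cytosolic aminoacyl-tRNA synthetases, counted with the scaffold proteins Aimp1 and Aimp2 of their complex, had a median of 47.1 over 21 genes, with Yars1, the tyrosine enzyme, at 99.8 (13.01 ± 0.19) and Kars1, the lysine enzyme, at 5.80.

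Regulators of poly(A) and the cap ranked lower, with 7 of 17 above the 50th percentile and a median of 41.1. Larp1, which binds terminal oligopyrimidine mRNAs, was highest at 89.9 (9.31 ± 0.55), and Fmr1, the repressor lost in fragile X syndrome, was lowest at 3.01 (5.91 ± 1.13). The 10 measured factors of mitochondrial translation had a median of 38.7, below that of the cytosolic members, from the elongation factor Gfm1 at 92.2 to the formyltransferase Mtfmt at 23.4. In limma 0 genes of these 6 lists were called in any pairwise contrast of pool sizes, and at an unadjusted p under 0.05 there were at most 1 per list and contrast.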

How the data were processed

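Affymetrix rat expression arrays of 9 dendrite pools were analysed. The authors deposited log2 probe set signals made with RMA 2.0, which corrects background, normalizes the arrays and combines probes. The median centring and percentile scaling of the study's methods were not in these values and were tried as an alternative. Of 31099 probe sets, 57 controls were set aside, 20826 named 1 gene, 436 named several and 9780 named none. Symbols of 20758 were updated through Entrez IDs and 68 were kept, which changed 0 memberships. Gene values were medians of probe sets, and percentiles were taken within arrays over 14217 genes and then as the median of 9 arrays. For pool sizes, a single fit to the 9 arrays was moderated by empirical Bayes (limma 3.58.1, R 4.3.3), and two-sided p values were adjusted by Benjamini-Hochberg, with 0.05 as the threshold. The script was tested on simulated data. Python 3.11.15, numpy 2.4.6, pandas 2.3.3 and matplotlib 3.10.9 were also used. Array number limits the precision. The members, gene lists and tests were chosen with earlier results of these data known. Genes named were the 10 highest and 5 lowest members, all elongation and release factors, the extremes of each complex and list, the 3 of smallest p per contrast, the 5 of largest SD and those whose probe sets differ by over 3 log2 units, and other members are given by percentile to account for all. Alternatives were quantile normalization, centring and scaling, genes of upper mean signal, the probe set of highest mean, mean percentiles, percentiles among probe sets, core factors only, a replicate block, trend and robust variance, the methods' t-test, single probe sets and leaving out each array. Sequences came from RefSeq (GRCr8), matched by symbol for 58 of 63 members.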

Additional observations from a re-analysis of the deposited data

Results flagged for a closer look

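The 66 results looked at were the 63 members and 3 group values. In 6 of them 1 array stood apart from the other 8 by Dixon's test at 95%, which chance gives for about 1 in 20. The share of all genes with such an array is not given here, so the count is not read as a trait of the members. Eif2s3 passed narrowly, with a ratio of 0.494 against the critical 0.493. In replicate 1 of the 400-dendrite pools, the array of lowest mean correlation with the others (0.749), Eif2b4 was at 7.78 (others 10.66 to 11.16), Eif4ebp2 at 10.30 (others 11.02 to 11.48) and Eif2s3 at 9.70 (others 8.59 to 9.16). Eef1a1 was at 9.79 in replicate 2 of the 400-dendrite pools, where the other arrays lay between 8.11 and 8.74. Eif1a was at 6.31 in replicate 1 of the 200-dendrite pools, with the others at 5.37 to 5.72. Eif2s1 was at 7.45 in replicate 3 of the 100-dendrite pools, with the others at 5.56 to 6.31, and it was the highest value of a gene that otherwise stood between the 5.17 and 16.9 percentiles. Why these arrays differed was not tested.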

How the results depend on the processing

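The 83 counts of members called between pool sizes, recomputed under the alternatives, were all 0. At an unadjusted p under 0.05 there were 0 to 5 members, beside 1.87% to 5.13% of all genes or probe sets tested. Members in the top 5% numbered 6 under each alternative except the genes above the middle by mean signal, which left 4, but Eif2ak1 took the place of Eif3i with the probe set of highest mean and Eef1b2 that of Eif2b4 with mean percentiles. Among those brighter genes the medians were 50.9 for initiation and 40.8 for elongation and their difference −10.2. That setting kept 38 of 63 members and took ranks among fewer, brighter genes, and the part of each in the change was not tested. With the probe set of highest mean the initiation median was 57.1 and the difference 5.80, and with core factors only the elongation median was 67.2 and the difference 6.76. Leaving out 1 array gave initiation medians of 60.4 to 63.8, elongation medians of 58.8 to 62.5, differences of −4.23 to −0.13 and 6 members in the top 5%. Of 12 named differences none passed the threshold under any alternative and Eif4g2 between 400 and 200 dendrites turned, to −0.090 with the probe set of highest mean and to −0.090 and −0.93 for the probe sets tested singly. Same-numbered replicates were not paired, since their deviations correlated at −0.189 to 0.093 (0 of 9 over 0.1, and 1 array best with its own number). With the replicate number as a block, 0 members were called and 1, 0 and 1 had an unadjusted p under 0.05 for 400 against 100, 200 against 100 and 400 against 200. The shares of all genes were 2.55%, 3.07% and 2.36%.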

Other observations

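Factors named only by probe sets that share 2 gene symbols were outside the rule. A probe set for Eif3e, a subunit of eIF3, and its copy Eif3el1 was at 11.26 ± 0.13 (SD, n = 9) and the 96.7 percentile of probe sets. The 3 probe sets for Eif5, the GTPase-activating factor of start codon choice, and its pseudogene Eif5-ps1 averaged 6.26, 9.44 and 9.13. The probe set for both Eif2s3 and Eif2s3y averaged 6.51 ± 0.66, compared with 8.95 for the probe set that names Eif2s3 alone and 5.82 for that of Eif2s3y alone.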
